A study of Paeonia ostii with 18 samples.

Results

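The glycolytic enzymes described here are 4 of the 14957 probes measured in flower buds of the tree peony Paeonia ostii 'Feng Dan Bai', picked by probe name. They are a pair of phosphofructokinase probes (CUST_10254_PI425249770 and CUST_3012_PI425249770), a phosphoglycerate mutase probe (CUST_9916_PI425249770) and an enolase probe (CUST_13855_PI425249770), named below without the suffix. Only phosphofructokinase acts early in glycolysis. Phosphoglycerate mutase and enolase act late, so the 4 probes are taken as glycolytic enzymes and not as early ones. Plants 4 years old were potted and held at 0 to 4 °C, and flower buds were taken unchilled (0 d) and at 6, 12, 15, 18 and 24 d of chilling, with 3 replicates of 3 plants each per time and 1 single-colour Agilent array per replicate. Buds chilled for 18 d were those the study defined as released from endo-dormancy. No other treatment or genotype was used. Each replicate was a mixed bud sample, and in such bulk samples fewer cells of a type and less RNA per cell cannot be told apart.

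Glycolysis splits a hexose to pyruvate. Phosphofructokinase phosphorylates fructose 6-phosphate and is a main control point of the upper steps, which prepare the sugar for cleavage. Phosphoglycerate mutase moves the phosphate of 3-phosphoglycerate, and enolase then removes water to form phosphoenolpyruvate, the substrate of pyruvate kinase. In woody buds, sugars released from starch feed this pathway during dormancy and regrowth.

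The names are those of the closest database match. CUST_10254 matched a castor bean (Ricinus) phosphofructokinase, CUST_3012 a maize 6-phosphofructokinase (symbol PFK3), CUST_9916 a castor bean phosphoglycerate mutase and CUST_13855 a grapevine enolase. The match of CUST_9916 was much the weakest, with an e-value of 2e-14 against 7e-68 for CUST_10254. Each probe had 1 spot per array, and none of these spots was flagged. The tables that supplied the names list probes the study had called on these same arrays, so the number of members that passed a test is not independent evidence.

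Of the 18 arrays, 8 lay on slide 1, 8 on slide 2 and 2 on slide 3. All buds of 0 and 6 d were on slide 1 and all buds of 15 and 18 d on slide 2. The 12 d arrays were split, with replicate 3 on slide 2 and the others on slide 1, and so were those of 24 d, with replicate 1 on slide 2 and the others on slide 3. Between 82.2 and 96.5% of probes were well above background on an array and no spot was saturated. Replicate 2 of 12 d stood apart at the dim end: its median negative control intensity was 29.0, against a median of 7.15 over the other 17 arrays. The 3 bud markers (AGL20, AS1, TCP14) and the 5 green tissue markers were above background on every array. The summed green tissue signal was 56533 to 59456 at 0 d and 27132 to 54470 on the chilled arrays. All 5 of its markers were lower in the chilled mean and 4 were called, beside 6.09% of all probes called lower. At 24 d 1 of the 5 was called lower than at 0 d, beside 3.23% of all probes. Of the 5, 2 were called higher at 18 and 24 d than at 6, 12 and 15 d, beside 0.802%. The summed bud marker signal was 84251 to 98296 at 0 d and 133360 to 148942 at 24 d, where AGL20 (2.65, adjusted p = 0.0134) and AS1 (0.56, adjusted p = 0.0379) were higher than at 0 d and TCP14 was not called (-0.39, adjusted p = 0.202). The part of slide, green tissue and bud markers in the changes below was not tested, apart from the values given within slides and with slide as a block.

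Phosphofructokinase CUST_10254 and enolase CUST_13855 were both higher in chilled than in unchilled buds, with different courses. CUST_10254 was highest at 24 d. Enolase was highest at 12 d and was not called at 18 or 24 d, and its chilled call was lost without replicate 1 or replicate 2 of 0 d. Phosphoglycerate mutase CUST_9916 fell at 18 and 24 d, and no change of phosphofructokinase CUST_3012 passed the test. Over the 6 times, CUST_9916 (adjusted p = 0.00750) and CUST_10254 (adjusted p = 0.0124) passed limma's moderated F test, and enolase (adjusted p = 0.0850) and CUST_3012 (adjusted p = 0.192) did not. These 2 of 4 members stand against 5.72% of all 14955 probes tested, and 16% of the 3720 probes described in the study's tables.

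**Figure D1:**
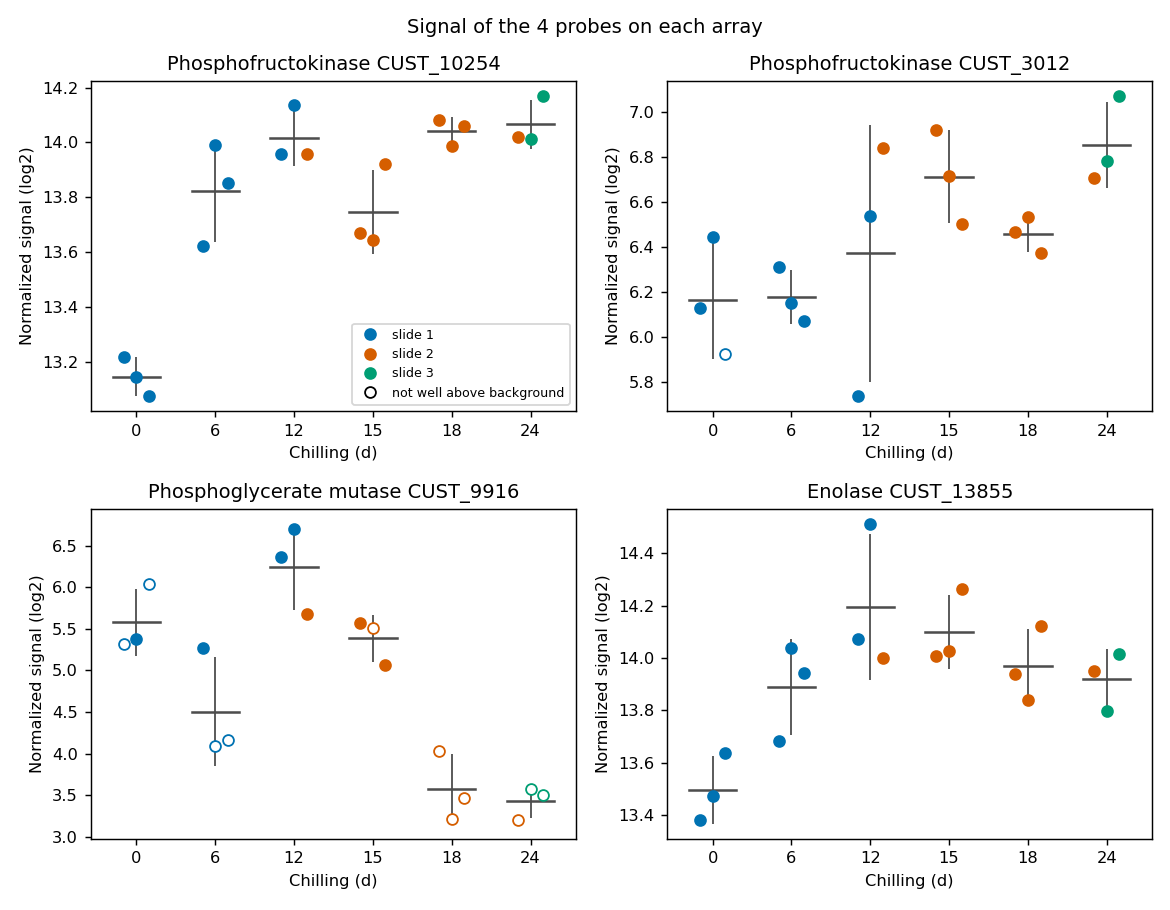
Normalized signal (log2, vertical axes with different ranges) of the 4 probes on each array against days of chilling, coloured by slide. Points are arrays, horizontal lines the means and vertical lines the SD of 3 arrays, and open points were not well above background. All 15 chilled arrays lie above the 3 arrays of 0 d for CUST_10254 and enolase.

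Phosphofructokinase CUST_10254 was a bright probe, above background on all 18 arrays. Its processed intensity was 10027, 8224 and 7003 on the 0 d arrays, and the normalized log2 signal there was 13.22, 13.15 and 13.08. At 6 d the log2 signal was 13.62, 13.99 and 13.85, and at 12 d it was 13.96, 14.14 and 13.96. Thus every array of the first 12 d of chilling lay above every unchilled array. Such a separation from 0 d held for 11.9% of all probes at 6 d and for 11.4% at 12 d. At 15 d the signal was 13.67, 13.65 and 13.92, at 18 d it was 14.08, 13.99 and 14.06, and at 24 d it was 14.02, 14.01 and 14.17. The values at 15 d were lower than those at 12 and 18 d without overlap, but neither step passed the test (adjusted p = 0.617 and 0.537). Over all probes, 5.7% fell from 12 to 15 d and 12.2% rose from 15 to 18 d without overlap.

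The 15 chilled arrays lay above the 3 unchilled arrays with no overlap, as for 3.12% of all probes. Chilled buds exceeded unchilled buds by 0.79 on the log2 scale (standard error 0.097, 1.73-fold, adjusted p = 8.80e-04, limma). By time, the log2 difference from 0 d was 0.87 after 12 d (adjusted p = 0.0128) and 0.60 after 15 d (adjusted p = 0.0156). It reached 0.90 by 18 d (adjusted p = 0.00138) and 0.92 by 24 d (adjusted p = 0.00530). The 6 d difference of 0.68 missed the threshold (adjusted p = 0.0575), where 0.0468% of probes were called higher, and passed it without replicate 1 of 6 d (0.78, adjusted p = 0.0308) or replicate 2 of 12 d (adjusted p = 0.0477). The 15 d call was lost without replicate 3 of 15 d (0.51, adjusted p = 0.0612). Over all probes, 1.61% were called higher after 12 d and 3.74% after 15 d. The share was 8.78% by 18 d and 4.51% by 24 d. The means ordered as 24, 18, 12, 6, 15 and 0 d, and of neighbours in this order only 15 and 0 d did not overlap.

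Only the 6 and 12 d differences could be taken within a slide. Among the arrays of slide 1, the 6 d mean exceeded the 0 d mean by 0.68 and the 12 d mean by 0.90, both without overlap. The 6 d value comes from all arrays of these times, so it repeats the difference given above. The 12 d value leaves out the 12 d array of the other slide. No array of a time after 12 d lay on slide 1, so the later differences from 0 d were not tested within a slide. With slide as a fixed block the chilled difference was 0.84 and the adjusted p 0.0540, and at 18 d 0.98 and 0.0878. That fit left 74 probes called in all for the chilled difference, against 2088 without it.

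Phosphofructokinase CUST_3012 was dim. Its intensity ran from 36.9 to 203, or to 136 without replicate 2 of 12 d, and it was above background on 17 of 18 arrays, the exception being replicate 3 of 0 d. The log2 signal was 6.13, 6.44 and 5.92 at 0 d and 6.31, 6.15 and 6.07 at 6 d, so these times overlapped fully. At 12 d it was 5.74, 6.54 and 6.84, the widest spread of the probe. At 15 d it was 6.92, 6.72 and 6.50, at 18 d 6.47, 6.54 and 6.37, and at 24 d 6.71, 6.78 and 7.07. The arrays of 15 and 24 d lay above those of 0 d, as for 16.5% and 17% of all probes, and those of 18 d overlapped with them.

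None of the differences of CUST_3012 passed the test over all arrays. From 0 d the log2 signal differed by 0.012 at 6 d, by 0.21 at 12 d and by 0.29 at 18 d. The differences at 15 d (0.55, adjusted p = 0.171) and 24 d (0.69, adjusted p = 0.0818, and 0.0279 without replicate 1 of 12 d) were larger, and the chilled mean differed by 0.35 (standard error 0.18, adjusted p = 0.213). Its 12 d array of slide 2 exceeded the mean of the 12 d arrays of slide 1 by 0.70, as much as the 24 d difference. Within slide 1 the differences from 0 d were 0.012 at 6 d and -0.028 at 12 d. With slide as a block the chilled difference was -0.15 (adjusted p = 0.813), and the sign turned.

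**Figure D2:**
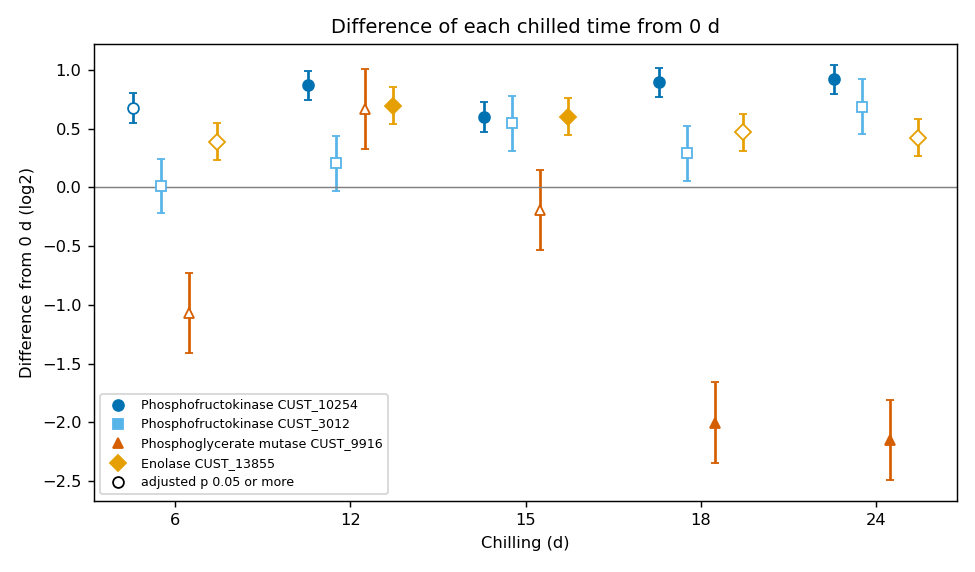
Difference of each chilled time from 0 d (vertical axis, log2) against days of chilling, with limma's standard errors as bars. Filled points have an adjusted p under 0.05, as CUST_10254 does at 12, 15, 18 and 24 d, enolase at 12 and 15 d and phosphoglycerate mutase at 18 and 24 d.

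Phosphoglycerate mutase CUST_9916 went the other way. It was also dim, with intensities of 6.52 to 224, or to 76.9 without replicate 2 of 12 d, and it was above background on 7 of 18 arrays: 1 of 0 d, 1 of 6 d, 3 of 12 d, 2 of 15 d and none of 18 and 24 d. The normalized log2 signal was 5.32, 5.37 and 6.04 at 0 d and 5.27, 4.09 and 4.16 at 6 d. It was highest at 12 d, with 6.36, 6.70 and 5.68, and next 5.57, 5.51 and 5.06 at 15 d. At 18 d it was 4.04, 3.22 and 3.47, and at 24 d 3.20, 3.58 and 3.51. The 6 arrays of 18 and 24 d lay below the 9 of 6, 12 and 15 d, as for 0.482% of all probes. They also lay below the 3 of 0 d, as 17.3% of probes did at 18 d and 12.6% at 24 d. The narrowest gap was between replicate 1 of 18 d (4.04) and replicate 2 of 6 d (4.09), neither above background. Before normalization between arrays their intensities had the other order, 18.5 against 13.5.

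The difference from 0 d was -2.00 at 18 d (standard error 0.34, adjusted p = 0.00326) and -2.15 at 24 d (adjusted p = 0.00548). Lower calls were made for 7% and 3.23% of all probes in these comparisons, and for 6.09% between all chilled times and 0 d. No array of 18 or 24 d was well above background, so the fall is given against a floor. The signal was then 2.96-fold lower at 18 d and 4.44-fold lower at 24 d than at 0 d, where 1 of 3 arrays was above background. Against 12 d, where all 3 were, it was 4.71-fold lower at 18 d and 7.05-fold lower at 24 d, with no test of these. These folds set the mean of the brighter group against that of the dim group. In the dim group each array took the higher of its own signal and the floor. The floor was the lowest signal among probes well above background on that array. Among the arrays of 18 and 24 d it exceeded the mutase signal only on replicate 3 of 18 d (4.78 against 3.47). The 24 d folds are thus measured ratios near background and not lower bounds, and all these folds hold only for the values used here. With normexp background correction, which adds an offset of 50, the log2 differences from 0 d were far smaller, at -0.48 for 18 d (adjusted p = 0.0161) and -0.55 for 24 d (adjusted p = 0.0153).

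Against the floor, the mean of 18 and 24 d was 3.16-fold lower than that of 6, 12 and 15 d, where 6 of 9 arrays were above background. The fitted log2 difference was -1.88 (standard error 0.22, adjusted p = 0.00282), and -0.45 with normexp (adjusted p = 0.0144). In this comparison 0.929% of probes were called lower and 0.482% had no overlap. The same difference was 0.23 for CUST_3012 (adjusted p = 0.455), 0.19 for CUST_10254 (adjusted p = 0.240) and -0.12 for enolase (adjusted p = 0.605), none of them called. The difference of the chilled mean from 0 d was -0.95 (adjusted p = 0.0302) with overlapping arrays, and it lost the call without any 1 of the 0 d arrays: adjusted p = 0.0612, 0.0607 and 0.163 without replicates 1, 2 and 3. Within slide 2 the 18 d arrays lay below the 15 d arrays, as for 8.83% of all probes, and were 2.59-fold lower against the floor. The fitted log2 difference was -1.81 (adjusted p = 0.114 in the fit over all arrays and 0.0288 without replicate 1 of 6 d), and -0.35 with normexp. Within slide 1 the 6 d arrays were lower than those of 0 d by a difference of -1.07 and the 12 d arrays higher by 0.95. The 12 d array of slide 2 differed from the mean of the 12 d arrays of slide 1 by -0.85, in the direction of the later fall. With slide as a block the F test kept its call (adjusted p at most 0.0306 under every alternative run), while the difference from 0 d was -1.16 at 18 d (adjusted p = 0.363) and -1.53 at 24 d (adjusted p = 0.523), neither called.

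**Figure D3:**
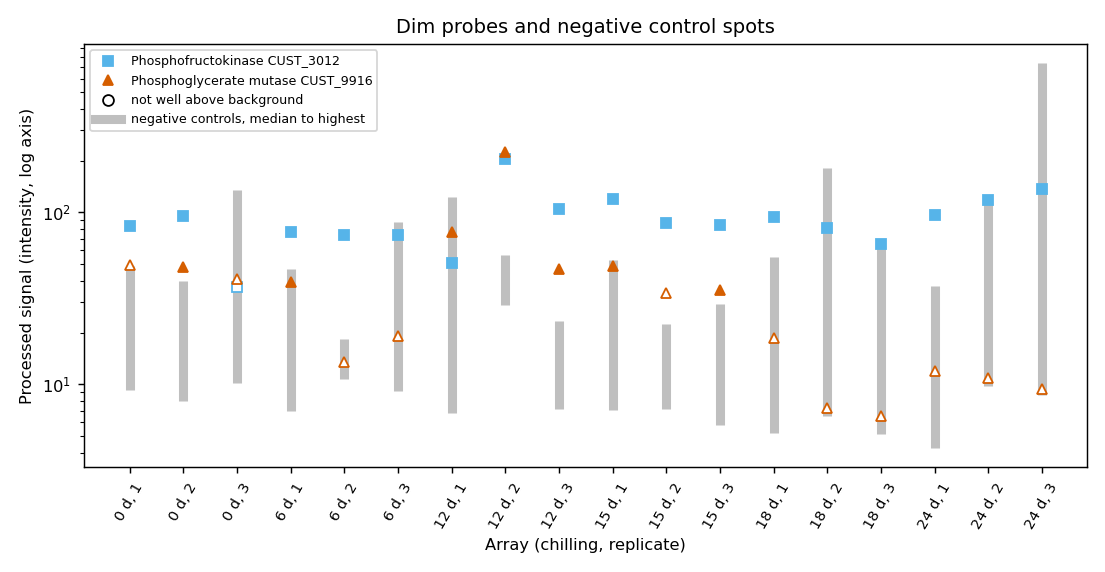
Processed intensity (log axis) of the 2 dim probes on each of the 18 arrays, with grey bars from the median to the highest of the 77 negative control spots of the array. Open points were not well above background, as CUST_9916 was at 18 and 24 d.

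Negative control spots reached the mutase signal on 12 of 18 arrays. At 18 d, 1, 15 and 5 of the 77 negative controls were at or above it, and at 24 d 2, 14 and 23. At 12 d these were 1, 0 and 0. Counts as low as 1 and 2 thus occurred among the arrays of 18 and 24 d as well.

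Enolase CUST_13855 was above background on all 18 arrays. The log2 signal was 13.38, 13.47 and 13.64 at 0 d and 13.68, 14.04 and 13.94 at 6 d. It was highest at 12 d, with 14.07, 14.51 and 13.999. At 15 d it was 14.01, 14.03 and 14.26, at 18 d 13.94, 13.84 and 14.12, and at 24 d 13.95, 13.80 and 14.02. All 15 chilled arrays lay above the 3 of 0 d, as for 3.12% of all probes, and the chilled times overlapped with their neighbours in the order of means.

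Chilled buds exceeded unchilled buds in enolase signal by 0.52 (standard error 0.12, 1.43-fold, adjusted p = 0.0148, limma), where 7.87% of probes were called higher. The call was made at 12 d (0.70, adjusted p = 0.0343) and 15 d (0.60, adjusted p = 0.0360). At 18 d (0.47, adjusted p = 0.0566) and 24 d (0.42, adjusted p = 0.108) it missed the threshold. The chilled call was lost without replicate 1 (adjusted p = 0.0782) or replicate 2 (adjusted p = 0.0553) of 0 d, and with slide as a block (0.72, adjusted p = 0.125). The 12 d call was lost without the same arrays (adjusted p = 0.0962 and 0.0746) and without replicate 2 of 12 d, the array that stood apart (0.54, adjusted p = 0.0895). The 15 d call was lost without them (adjusted p = 0.111 and 0.0787) and without replicate 1, 2 or 3 of 15 d (adjusted p = 0.0731, 0.0922 and 0.123). Without replicate 2 of 12 d the 18 d difference passed (adjusted p = 0.0276). Within slide 1 the 6 d mean exceeded that of 0 d by 0.39 and the 12 d mean by 0.79, both without overlap. The 6 d value comes from all arrays of these times, and 11.9% of all probes were higher there without overlap.

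Between neighbouring times, none of the 16 steps of the 4 members passed the test, and over all probes 3 were called, all from 15 to 18 d. The 6 pairs of members were compared by the exact two-sided permutation test over 816 splits of the arrays, in which the smallest possible p is 0.00123. The shift between CUST_10254 and the mutase was 1.74 (exact permutation p = 0.0282, adjusted over the pairs 0.0809) and that between the mutase and enolase -1.47 (exact permutation p = 0.0404, adjusted 0.0809). CUST_10254 shifted more than enolase, by 0.28, with the same exact permutation p (0.0404, adjusted 0.0809). The phosphofructokinase probes differed in their change by -0.44, CUST_3012 less than CUST_10254 (exact permutation p = 0.0748, adjusted 0.112). No pair passed the threshold after adjustment over all arrays, and without replicate 1 of 12 d the mutase passed against CUST_10254 and enolase (adjusted p = 0.0441) but not against CUST_3012 (adjusted p = 0.0684). All arrays of 0 d lay on slide 1 and most chilled arrays on other slides. Among the arrays of slide 1 alone, the mutase pairs shifted by 1.03 with CUST_10254 and -0.82 with enolase (exact permutation p = 0.214 and 0.268). There CUST_10254 and enolase differed by 0.21 (exact permutation p = 0.125). The phosphofructokinase probes differed more, by -0.77 (exact permutation p = 0.0357, adjusted 0.214). No pair passed there after adjustment. A p over the threshold does not show that the members moved alike.

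The rest of the pathway is given for context, from the 12 other glycolytic probes the tables describe. At 18 d against 0 d 7 of these 12 were called higher and none lower, with a median log2 difference of 0.63 against 0.054 over all probes and 15.9% of described probes called higher. In upper glycolysis, hexokinase HXK3 (0.47, adjusted p = 0.0406), the aldolase AT3G52930 (1.03, adjusted p = 0.00797) and triose-phosphate isomerase TPI (0.70, adjusted p = 0.00707) rose beside CUST_10254, making 4 of 6. A further phosphofructokinase probe, CUST_13227, was not called (0.33, adjusted p = 0.136). The HXK3 call was lost under 7 of 11 alternatives and without any of 10 arrays, among them each array of 0 and 18 d (adjusted p up to 0.119).

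In lower glycolysis the enolase LOS2 (1.32, adjusted p = 0.00312) and the pyruvate kinases AT2G36580 (2.21, adjusted p = 0.00442) and PKP-ALPHA (0.58, adjusted p = 0.00853) rose. The mutase alone of 8 was called lower. AT2G36580 was dim at 0 d, where 2 of 3 arrays were above background, and with normexp its difference was 1.04 (adjusted p = 0.0104). The phosphoglycerate kinases PGK (0.0018) and PGK1 (-0.24) were not called, with adjusted p of 0.998 and 0.666. CUST_7243, placed in glycolysis by the study with no named step, was not above background at 0 d. It was 2.45-fold higher at 18 d against a floor set as for the mutase (adjusted p = 0.0216, and 0.0646, 0.0560 and 0.0692 without replicate 3 of 0 d, replicate 1 of 18 d and replicate 3 of 18 d). With slide as a block 0 of the 12 were called. Over all probes that fit called 50 in this comparison in either direction, against 2360 without it.

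**Figure D4:**
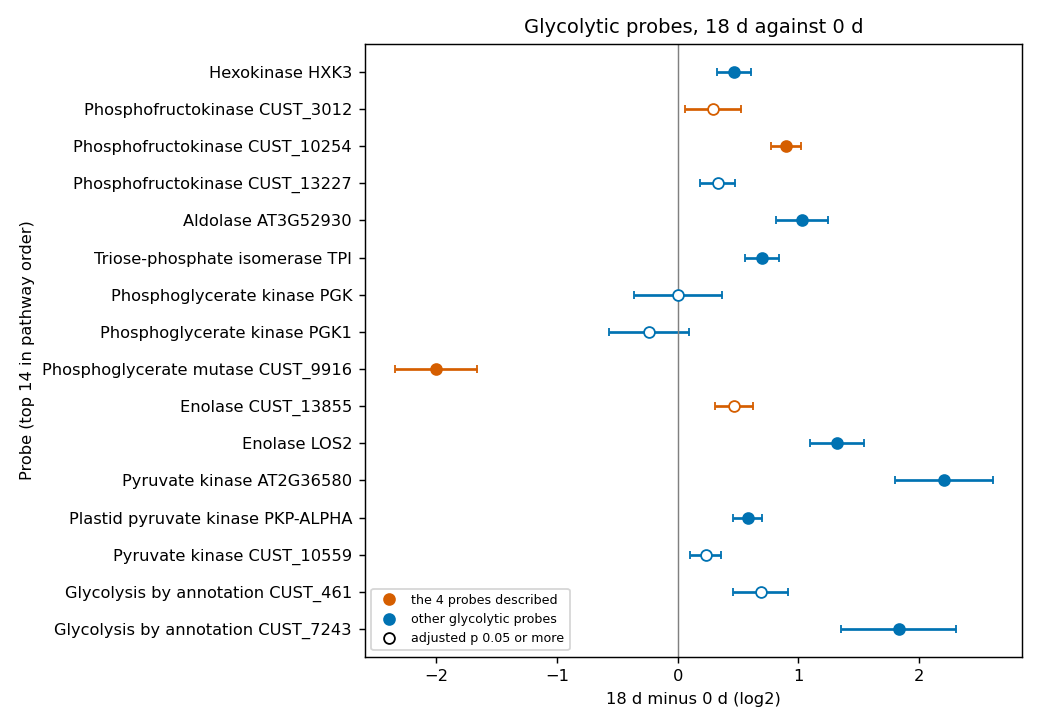
Difference of 18 d from 0 d (horizontal axis, log2, bars are limma's standard errors) for 16 glycolytic probes, the first 14 in pathway order from the top. Filled points have an adjusted p under 0.05, and phosphoglycerate mutase CUST_9916 is the filled point below 0.

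Among the neighbouring steps, the invertase CUST_11973, which splits sucrose, rose at 18 d (1.34, adjusted p = 0.00312) and was the 1 call of 5, beside 15.9% of described probes called higher. ADH1, the alcohol dehydrogenase of fermentation, was not called at 18 d (-2.09, adjusted p = 0.0712) and was called lower at 24 d (fitted log2 difference -2.98, adjusted p = 0.0301). It was above background on 2 of 3 arrays at 0 d and on 1 of 3 at both 18 and 24 d. Phosphoglucomutase PGM (-0.32, adjusted p = 0.271), glucose-6-phosphate dehydrogenase CUST_10171 (0.24, adjusted p = 0.394) and transaldolase CUST_10575 (-0.49, adjusted p = 0.532) were not called at 18 d.

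As a description over the 18 arrays, with no test, CUST_10254 and enolase correlated most among the members (Pearson r = 0.76), and CUST_10254 and the mutase had r = -0.44. Arrays of 1 time share their chilling and mostly their slide. Of 497 well described probes above background on all arrays, the closest to CUST_10254 were a Na+/H+ antiporter, CUST_13884 (r = 0.92), an oligopeptide transporter, CUST_9823 (r = 0.86) and a 26S protease regulatory subunit, CUST_11817 (r = 0.82). The last of these was also close to enolase (r = 0.81), after an ankyrin repeat protein, CUST_12423 (r = 0.84). The closest to CUST_3012 was a calcium ion binding protein, CUST_4359 (r = 0.88), and to the mutase a DNA binding protein, CUST_8150 (r = 0.81).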

How the data were processed

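Per the file headers, the scanner intensity values came from Feature Extraction 10.5.1.1, which subtracted background within each array only. The authors' value table, in log2 and quantile-normalized, was an alternative here. It correlated with the values used at 1.00 (rounded) on each array. For the main analysis the processed intensities were put on the log2 scale without flagged spots, averaged per probe and quantile-normalized, the step named in the methods. Tests used limma 3.58.1 (R 4.3.3), with every time given its own mean over 18 arrays. P-values were adjusted by Benjamini-Hochberg across the array, and 0.05 was the threshold. Spreads are SD over 3 arrays, and their number limits the precision. Replicates pooled 3 plants each, per the labels. Members and gene lists were chosen with earlier results of these data known. Named genes are the members, all list probes and, for each member, the described probes correlating best with it. Alternatives were 75th percentile scaling, none, the value table, normexp (offset 50, median signal, as the mean column was absent), a dim-probe filter, flagged spots kept, blocks for slide or replicate number, leaving arrays out singly, fitting only the times compared, a trended robust prior, and the methods' ANOVA and Tukey test. Fits were tested on simulated data. Probes with no description were not analysed by name.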

Additional observations from a re-analysis of the deposited data

How the results depend on the processing

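Most results kept their direction and their side of the threshold under the alternatives run, and slide as a fixed block changed the most. That fit links slides 1 and 2 through the 12 d arrays alone. Under it 1 member passed the F test, CUST_10254 having an adjusted p of 0.0710, and 59 of all probes passed, against 856 without it. Of the 20 differences of single chilled times from 0 d, 2 were called, against 8 without the block. These were CUST_10254 and enolase at 12 d, where 509 of all probes were called, against 468 without the block. Between 18 and 24 d and the earlier chilled times 0 of the members differed, and 4 of all probes did, against 259 without the block. At 18 d 0 of the other 12 glycolytic probes were called higher. CUST_10254 then differed from 0 d by 0.84 over the chilled times and 0.98 at 18 d, enolase by 0.72 over the chilled times, and the mutase by -0.43 over the chilled times and -1.16 at 18 d, and no call was made for these. The mutase difference of 18 and 24 d from 6, 12 and 15 d was -1.52, also not called. With this block signs turned for CUST_3012, to -0.028 after 12 d and -0.15 after 15 d, then -0.41 by 18 d and -0.16 by 24 d, with -0.15 over the chilled times and -0.23 for the late against the earlier chilled times. They also turned for the mutase at 15 d (0.65) and enolase for the late times (0.061). Slide as a random block had a correlation of 0.054 between arrays of a slide. The cause of these changes, and of those given next, was not tested.

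With the 75th percentile, CUST_3012 turned to -0.00024 at 6 d, -0.073 at 18 d and -0.17 for the late times, and PGK to -0.42. The mutase, at -1.08 over the chilled times, lost its call. Without normalization the calls from 0 d numbered 5, the mutase was at -0.93 over the chilled times and not called, PGK was at -0.079, and enolase was called at 18 d (0.80) and turned to 0.15 for the late times. With normexp the mutase was at -0.24 over the chilled times and not called, and its calls at 18 and 24 d held at -0.48 and -0.55, against -2.00 and -2.15 without it. The enolase F test passed with normexp (adjusted p = 0.0224), as did enolase at 18 d (0.56), and 4 pairs passed. Enolase at 18 d (0.47) also passed with a trended and robust prior, and its unadjusted ANOVA p was 0.00617. Fits of only the arrays compared called 2 differences from 0 d.

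Leaving out 1 array at a time gave CUST_3012 differences of -0.11 to 0.15 at 6 d and -0.028 to 0.52 at 12 d, and mutase differences of -0.32 to 0.038 at 15 d and -1.08 to -0.72 over the chilled times. Enolase ran from 0.39 to 0.54 at 18 d and from 0.46 to 0.59 over the chilled times, and PGK from -0.062 to 0.086. Between neighbouring times 0 to 1 calls were made, and 0 to 2 pairs passed.

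Replicate numbers did not pair the samples: same-numbered arrays correlated between -0.23 and 0.27 in their deviations from the time means (median -0.034 over 45 pairs), and 6 of 18 arrays correlated best with their own number. With replicate number as a block 2 members passed the F test (adjusted p = 0.0199 for the mutase and 0.0245 for CUST_10254) and 8 differences from 0 d were called, as without it. The block ended the HXK3 call (adjusted p = 0.0636) and changed no other call. Signal near background limits CUST_9916 and CUST_3012.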
